A study of Mus musculus with 10 samples.

Results

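Mouse colon organoids that lack Trp53 and grow without added Wnt (KOWI) were compared with Trp53-deleted organoids kept in full medium (KO). The comparison holds 4 of the 6 organoid samples, with 2 KO and 2 KOWI samples. Of the 10 arrays of the study, 2 carried a KOWI and a KO sample together, in opposite dye orientations. Another 4 organoid arrays, which paired wild-type (WT) organoids with KO or KOWI, gave the difference indirectly. Arrays were chosen by their titles alone, and no measured value entered the choice.

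All organoids came from VillinCreERT2 x Trp53fl/fl mouse colon, in which tamoxifen-activated Cre is driven in gut epithelium by the villin promoter. KO cultures were exposed to 800 nM 4OH-tamoxifen for 2 days and then selected with Nutlin-3A, which halts cells with working p53. KOWI organoids carry the same Trp53 deletion. Full medium held 0.328 nM surrogate Wnt (sWnt), 3 µM CHIR, which blocks GSK3 and so stabilises β-catenin, and 25% R-spondin 1 conditioned medium. It also held 100 ng/ml noggin, 50 ng/ml EGF and 0.5 µM A83-01, an inhibitor of TGF-β receptors. KOWI organoids were cultured without sWnt and CHIR, with the other factors kept. The change of medium, adaptation to it and selection of cells in it cannot be told apart in this comparison. The labels do not say that replicates came from separate mice or cultures, so a p-value here reflects only how far these samples scatter, and that scatter may be technical. In each group replicate 1 carried the Cy3 dye and replicate 2 the Cy5 dye.

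Wnt proteins bind Frizzled and Lrp receptors at the cell surface and stop the destruction of β-catenin, which then drives genes through Tcf factors. In the colon the signal is strongest at the crypt base. There it keeps stem cells such as those marked by Lgr5, while colonocytes, goblet cells and enteroendocrine cells mature farther up. R-spondin strengthens the signal by sparing Wnt receptors from turnover, but needs some Wnt protein to act on. YAP and TAZ are coactivators that the Hippo kinases hold back. They bind DNA through TEAD factors and are active in regenerating gut epithelium.

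Promoter sequences are shown for 3 genes whose values recur in the results. They are Ccn1, a widely used YAP target, Dusp1, a phosphatase that switches off MAP kinases, and Aqp8, a water channel of mature colonocytes. Each run is the 250 bases before the gene's start in RefSeq's annotation of GRCm38.p6, written 5′ to 3′ along the gene. Ccn1 lies at chr3:145649986-145650235 on the minus strand, Dusp1 at chr17:26508473-26508722 on the minus strand, and Aqp8 at chr7:123462044-123462293 on the plus strand. Capitals mark the TEAD motif GGAATG or its reverse complement CATTCC, and the cAMP response element TGACGTCA.
Ccn1: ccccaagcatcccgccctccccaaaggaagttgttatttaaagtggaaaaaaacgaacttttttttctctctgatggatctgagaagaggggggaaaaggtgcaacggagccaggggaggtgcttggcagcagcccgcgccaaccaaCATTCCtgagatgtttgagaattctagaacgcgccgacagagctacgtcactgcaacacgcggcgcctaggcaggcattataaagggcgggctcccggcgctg
Dusp1: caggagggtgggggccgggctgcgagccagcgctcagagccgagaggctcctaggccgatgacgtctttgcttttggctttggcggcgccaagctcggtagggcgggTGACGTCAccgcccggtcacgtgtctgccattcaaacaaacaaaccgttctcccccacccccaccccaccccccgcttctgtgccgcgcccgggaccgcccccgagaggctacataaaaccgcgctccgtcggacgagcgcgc
Aqp8: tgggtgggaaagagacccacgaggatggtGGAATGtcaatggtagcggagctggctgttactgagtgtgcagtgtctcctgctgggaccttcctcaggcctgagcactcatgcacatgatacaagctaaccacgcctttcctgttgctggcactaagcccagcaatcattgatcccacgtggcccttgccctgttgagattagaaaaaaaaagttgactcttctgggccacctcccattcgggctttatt
The TEAD motif begins 103 bases before the start of Ccn1 and 221 bases before that of Aqp8. The cAMP response element begins 143 bases before the start of Dusp1. Both strands were searched, and each of these 3 windows held 1 of the motifs, so no motif overlapped another. Among all 32851 promoter windows of this length, 12.6% held the TEAD motif and 1.55% the cAMP response element. The Tcf motif CTTTGAT, or ATCAAAG on the other strand, was in 3.21% of the windows and in none of these 3. A match describes the letters only and is no evidence of binding.

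Trp53, the deleted gene, was read by a probe at mm9 chr11:69403134-69403193. Whether that probe lies in the deleted part was not checked. Its normalised log2 intensity was 7.99 and 7.57 in the WT samples, 6.92 and 6.99 in KO, and 7.04 and 6.94 in KOWI. The signal rose clear of background in the 2 WT samples and on none of the KO and KOWI arrays. No KOWI over KO fold is given for it, since neither group was above background. Cdkn2a, the tumour suppressor locus upstream of p53, read 15.22 and 15.20 in KO and 14.83 and 14.82 in KOWI. This log2 difference of -0.38 did not pass the test (limma, adjusted p = 0.413), and its other probe differed by 0.17. Cdkn1a, the p53 target that arrests the cycle, differed by -0.07. Of 27 tested p53 target genes limma called none, 4 had an unadjusted p under 0.05, 18 values were above 0 and 9 below, and the median was 0.10.

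General epithelial genes had a median difference of -0.08 between the cultures, with 6 values above 0 and 9 below. Epcam and Cdh1, which hold epithelial cells together, differed by -0.08 and 0.00. Cdx2, a transcription factor of intestinal identity, differed by -0.28, with ratios of 0.18 in replicate 1 and -0.73 in replicate 2. Limma called 0 of the 15 tested general epithelial genes, and 2 had an unadjusted p under 0.05. KO and KOWI did not overlap in 3 that were higher and 4 that were lower, beside 16.1% and 21.6% of all tested genes. Vil1 of this list differed by -0.89. Of 16 fibroblast markers 14 were dim, which means that no group had all its channels well above background, and Col1a1, Col3a1, Vim and Pdgfra were among them. Pdgfrb was the fibroblast marker tested, at 9.04 and 9.19 in KO and 8.59 and 7.72 in KOWI, a difference of -0.96 ± 0.27 that was not called (limma, adjusted p = 0.204). Among 10 endothelial markers 6 were dim, with Cdh5, Kdr and Tie1 among them. Of 10 smooth muscle markers 4 were dim, and of 14 gastric markers 4. Of 16 blood cell markers 5 were dim, including Cd3d and Cd79a, 7 were lost to outlier spots and 4 were tested. Of the 16, 10 were well above background on both arrays of each KO sample, with 13 and 10 in the KOWI samples. The summed linear intensity of the 4 tested blood markers was 36400 and 41100 in KO and 34800 and 36900 in KOWI. That of the 10 tested squamous markers was 57700 and 39000 in KO and 39900 and 58300 in KOWI, so the groups overlapped. Because whole cultures were measured, fewer cells of a type and less RNA per cell cannot be told apart in any result given here.

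Across 9894 genes tested, limma with Benjamini-Hochberg adjustment at 0.05 called 42 (0.424%). Of these 17 were higher in KOWI (0.172%) and 25 lower (0.253%). Some of them passed the background filter only through the group where they are high, so these counts give no support. With both groups above background 8904 genes were left, and limma called 11 higher and 22 lower. The genes that fell included the colonocyte transporters Aqp8 and Slc9a3, the mucin Muc3 and the host defence genes Lypd8 and Reg3b. Those that rose included membrane proteins, the MAP kinase phosphatase Dusp1 and the growth factor Tgfb2. Changes over 2-fold in the same direction in both replicates were seen in 103 genes on the higher side (1.04%) and 110 on the lower side (1.11%). KO and KOWI values did not overlap in 1593 genes that were higher in KOWI (16.1%) and 2139 that were lower (21.6%). The median over all tested genes was -0.04, with 4346 values above 0 and 5548 below. The KOWI over KO ratios of replicates 1 and 2 correlated across genes with r = 0.328. Those of the 2 arrays that carried KOWI and KO together, each with replicate 1 of one group and replicate 2 of the other, correlated with r = 0.412. Genes are not independent replicates.

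These counts hang on the spread between few samples. Without KO replicate 2 or without KOWI replicate 2 limma called 0 genes, with 356 and 887 genes at an unadjusted p under 0.05. Without KO replicate 1, WT replicate 1 or WT replicate 2 it called 143, 121 and 134, and without KOWI replicate 1 it called 47. Limma also called 0 genes with the scanner software's ratios, with the authors' deposited ratios and when outlier spots were kept. There 1262 of 9894, 1259 of 14665 and 1319 of 14665 genes had an unadjusted p under 0.05. In the fit reported here 1405 of 9894 did. The sign of each of the 42 calls was the same in every alternative that gave it a value. The scanner marked 13.7% to 16.3% of spots as outliers on the 4 arrays that held KOWI and 0.808% to 2.18% on the 2 arrays without it. The arrays with KOWI were also those with 2 as the first of the closing digits of the scan name, and the others had 1. The labels do not say what this digit stands for, and KOWI cannot be told apart from it in this rate. Without the outlier spots the authors' deposited ratios gave 10 calls, an alternative added after seeing the data.

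**Figure D1:**
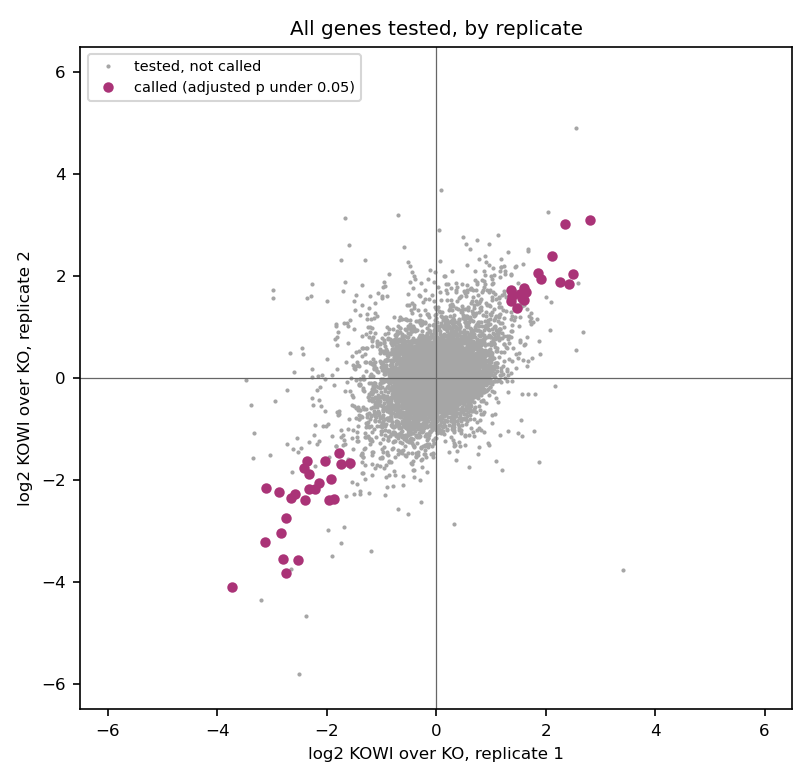
Each point is a gene, with the KOWI over KO difference (log2) of replicate 1 on the horizontal axis and of replicate 2 on the vertical axis; coloured points are the 17 genes called higher and the 25 called lower. The called genes lie toward the upper right and lower left corners, while the cloud of all 9894 genes is only loosely drawn out along the diagonal (r = 0.328).

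**Figure D2:**
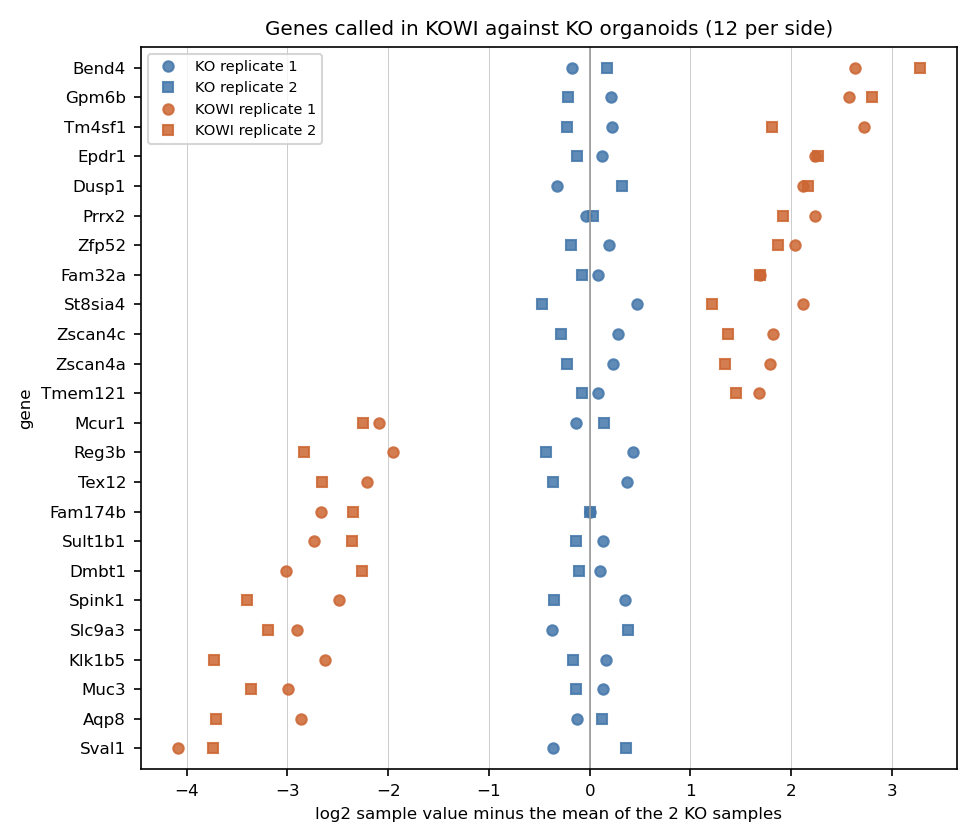
Log2 value of each KO and KOWI sample minus the mean of the 2 KO samples, for 12 called genes per side, one row per gene; circles are replicate 1 and squares replicate 2. Both KOWI values lie to the same side of both KO values in each gene drawn.

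Between KOWI and KO none of 17 tested Wnt target genes was called by limma (background 0.424% called), and 5 had an unadjusted p under 0.05. The feedback gene Axin2, which β-catenin induces in most tissues, read 8.78 and 8.24 in KO and 9.03 and 9.08 in KOWI, a difference of 0.54 ± 0.21 (log2, SE, n = 2 and 2; limma, adjusted p = 0.344). Both KOWI values lay above both KO values. Lgr5, the stem cell receptor for R-spondin, read 10.13 and 9.29 in KO and 11.22 and 10.84 in KOWI on 5 of 6 arrays, a difference of 1.32 ± 0.19 (adjusted p = 0.0674). With outlier spots kept the Lgr5 ratios were 0.19 in replicate 1 and 1.99 in replicate 2. Sox9, a crypt transcription factor, read 8.36 and 7.48 in KO and 9.60 and 9.12 in KOWI, a difference of 1.44 ± 0.18 (adjusted p = 0.0585), while its other probe differed by 0.43. Nkd1, an intracellular brake on Wnt signalling, differed by 0.95 ± 0.20 (adjusted p = 0.125), and its probe was well above background on 1 of the 2 arrays of KO replicate 2. These 4 genes thus showed no lower value in KOWI in either replicate, and none passed the test.

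Other targets gave opposite values when samples were paired by replicate number, and whether the numbers pair them is not known. Ascl2, a transcription factor of colon stem cells, read 14.34 and 12.72 in KO and 12.86 and 14.34 in KOWI on 5 of 6 arrays, so its ratio was -1.47 in replicate 1 and 1.62 in replicate 2. Sp5, a direct β-catenin target, had ratios of -0.98 and 0.53. Cd44, a crypt adhesion receptor, had ratios of -0.87 and 0.96. The 2 arrays that carried KOWI and KO together set KOWI replicate 2 against KO replicate 1, and KOWI replicate 1 against KO replicate 2. There Ascl2 differed by 0.00 and 0.15, Sp5 by -0.51 and 0.01, and Cd44 by 0.09 and 0.00. Rnf43, which removes Wnt receptors from the surface, differed by -0.01, while its other probe differed by 0.74. Fgf9, a growth factor, differed by -1.04 ± 0.28 (limma, adjusted p = 0.187). Over the Wnt target list 10 values were above 0 and 7 below. Its median was 0.05, with -0.22 in replicate 1 and 0.56 in replicate 2, beside -0.04 over all genes. Outlier spots kept Myc, Ccnd1, Notum, Znrf3, Tcf7 and Tcf7l2 out of the fit, and with these spots kept their differences were 0.21, 0.09, -0.25, 0.11, -0.05 and -0.19. Lef1 was dim.

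Of 19 Wnt ligand genes 9 were dim, 4 were lost to outlier spots and 6 were tested, with none called by limma and 2 at an unadjusted p under 0.05. Wnt7b, an epithelial ligand, read 11.01 and 8.72 in KO and 11.09 and 12.42 in KOWI on 5 of 6 arrays. Its difference of 1.89 ± 0.79 came with a wide gap between the KO samples (limma, adjusted p = 0.377), and its other probe differed by 0.49. Wnt4 read 7.63 and 7.43 in KO and 8.45 and 8.98 in KOWI, a difference of 1.19 ± 0.27 (adjusted p = 0.133), and its KO and KOWI values did not overlap. In KO replicate 2 its probe was well above background on 1 of 2 arrays. Wnt9a, Wnt5b, Wnt6 and Wnt10a differed by 0.51, 0.17, 0.11 and -0.02, with Wnt9a well above background on 1 of 4 KO arrays. The 2 replicates of Wnt10a went opposite ways, at -1.20 and 1.16, while the 2 arrays that carried KOWI and KO together gave 0.67 and 0.26. With outlier spots kept, Wnt5a, Wnt7a, Wnt1 and Wnt9b differed by 0.04, 0.24, -0.28 and 0.03. Among the dim ligands were Wnt3 and Wnt3a, which activate β-catenin, and Wnt2b and Wnt11.

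Ror2, a receptor for Wnt5a-type signals that do not act through β-catenin, fell in KOWI. It read 9.18 and 8.78 in KO and 7.31 and 6.41 in KOWI, a difference of -2.12 ± 0.23 (log2, SE, n = 2 and 2; limma, adjusted p = 0.0436). WT samples read 7.81 and 6.65, so KO stood 1.75 above WT (log2), and the KOWI and WT values overlapped. In KOWI replicate 2 and in WT replicate 2 the probe was not well above background. The KO samples enter both differences. The remaining tested receptors were not called. Fzd7 differed by 0.74, Fzd1 by 0.44, Fzd5 by -0.19, and the coreceptors Lrp6 and Ryk by -0.14 and 0.07. Fzd2, Fzd3, Fzd8, Fzd9, Fzd10, Lgr6, Ror1, Rspo1, Rspo2 and Rspo3 were dim. With outlier spots kept, Lgr4, Lrp5, Fzd4, Fzd6, Ptk7 and Rspo4 differed by -0.42, -0.15, 0.08, 0.29, -0.24 and 0.05. The ligand export genes Wls and Porcn differed by -0.10 and 0.04 on the same footing.

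Of 16 secreted Wnt antagonists and their receptors 13 were dim, including Dkk1, Dkk2, Dkk3, Sfrp1, Sfrp5 and Wif1. Kremen2, a receptor through which Dkk proteins act, was the one tested. It read 9.03 and 9.44 in KO and 8.0 and 8.16 in KOWI, a difference of -1.15 ± 0.18 that missed the threshold (limma, adjusted p = 0.0718). Kremen1 differed by 0.06 with outlier spots kept. Limma called none of 18 tested signal transducers, 1 had an unadjusted p under 0.05, and their median was 0.07. Ctnnb1, which encodes β-catenin, differed by 0.17, with its 3 probes ranging from -0.23 to 0.23. Csnk1e, a kinase of the pathway, differed by 0.90 (adjusted p = 0.0891).

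**Figure D3:**
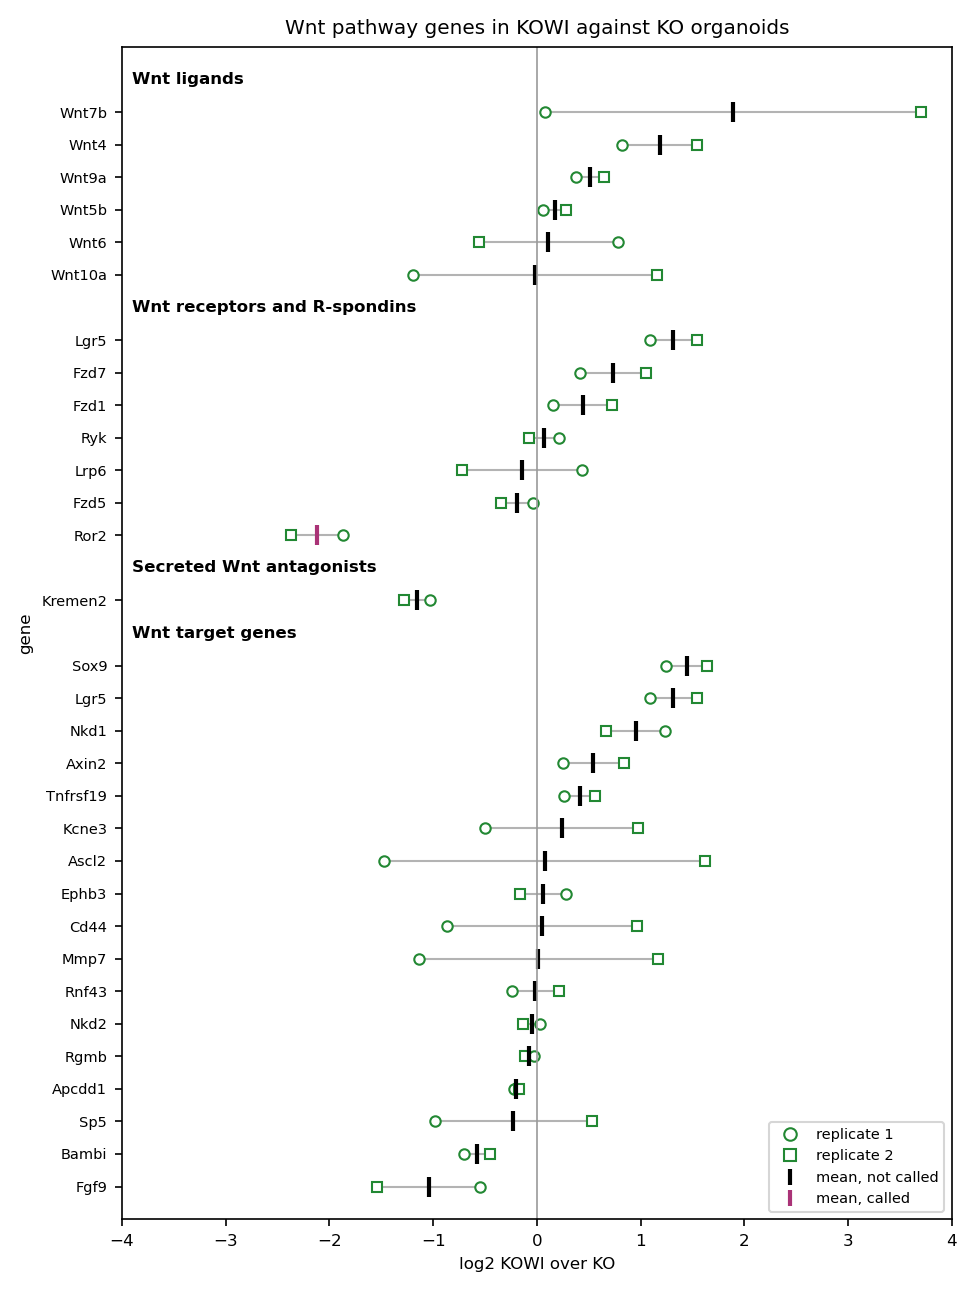
KOWI over KO difference (log2) of Wnt pathway genes, drawn separately for replicates 1 and 2 with the fitted value. Ror2 lies at -2.12, Sox9 at 1.44 and Lgr5 at 1.32, while Ascl2 has replicates of opposite sign.

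Most colonocyte genes lay on the lower side in KOWI. Of 26 tested markers 4 fell, where 0.253% of all tested genes did, none rose, and 22 had values below 0. KO and KOWI did not overlap in 18 markers that were lower and 2 that were higher, beside 21.6% and 16.1% of all tested genes. With both groups above background 4 of 24 fell. The median was -0.86, beside -0.04 over all genes. Aqp8 read 15.84 and 16.09 in KO and 13.10 and 12.26 in KOWI. That is a difference of -3.28 ± 0.30 (log2, SE, n = 2 and 2; limma, adjusted p = 0.032), or 9.74-fold. Muc3, a mucin anchored in the brush border, read 14.97 and 14.70 in KO and 11.84 and 11.48 in KOWI, a 9.05-fold fall (adjusted p = 0.0168). Its other probe differed by -1.48 (log2), and the mean of both by -2.33. A probe for the related Muc3a gave replicate ratios of -1.87 and -0.88, and the copies could share signal. Slc9a3, the sodium-proton exchanger that takes up salt, read 11.85 and 12.60 in KO and 9.32 and 9.03 in KOWI, an 8.27-fold fall (adjusted p = 0.032). In these 3 genes the gap between groups exceeded the gap between replicates.

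Lypd8, a colonocyte protein that keeps flagellated bacteria off the epithelium, read 15.60 and 15.997 in KO and 13.27 and 14.12 in KOWI, a 4.30-fold fall (limma, adjusted p = 0.032). Klf4, a transcription factor of mature surface cells, read 15.09 and 15.38 in KO and 13.86 and 14.24 in KOWI, a difference of -1.19 ± 0.16 just outside the threshold (adjusted p = 0.059). Krt20, a keratin of mature surface cells, and Vil1, the brush border actin bundler, differed by -1.02 and -0.89 (adjusted p = 0.158 and 0.126). Slc26a3, the chloride exchanger, was not fitted, and with outlier spots kept its ratios were 0.23 and -1.60. The median of 17 tested intestinal transcription factors was -0.24, with 0 called by limma and 4 at an unadjusted p under 0.05. Hnf4a, a transcription factor of gut epithelium, differed by -0.56.

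Most goblet cell genes lay on the lower side as well. Of 21 tested markers 1 fell, 20 had values below 0, and 17 had KOWI values under both KO values. Of all tested genes 0.253% fell and 21.6% lay under without overlap. The goblet median was -0.97, and with both groups above background 1 of 19 fell. Rep15, a Rab15-binding protein found in goblet cells, read 10.10 and 10.41 in KO and 8.53 and 8.74 in KOWI, a 3.08-fold fall (limma, adjusted p = 0.0383). Spdef, the factor that drives goblet maturation, read 10.47 and 10.20 in KO and 8.25 and 8.48 in KOWI, a difference of -1.97 ± 0.23 (adjusted p = 0.0545). Atoh1, which commits cells to the secretory lineage, read 11.60 and 10.31 in KO and 9.76 and 8.97 in KOWI, a difference of -1.59 ± 0.21 (adjusted p = 0.059). Gfi1, a factor downstream of Atoh1, and Spink4 differed by -1.45 and -1.23. Muc2, the gel-forming mucin, differed by -0.33. Of 8 tested markers of small intestine and Paneth cells 7 had values below 0, 5 of them without overlap. Limma called 0 of these 8, and 4 had an unadjusted p under 0.05. Their median was -0.76, with -1.76 in replicate 1 and -0.05 in replicate 2. With both groups above background 5 were left, at a median of -1.02. The part of these genes in the goblet values was not tested.

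Enteroendocrine genes showed the same direction without a call. Of 12 tested markers 10 had values below 0, in 9 of them without overlap (21.6% of all tested genes), and the median was -0.91. Limma called 0, and 8 had an unadjusted p under 0.05. Some markers passed the background filter without KOWI, where they are low, so these counts give no support. With both groups above background 9 were left, limma called 0 and the median was -0.87. Scg2, a granule protein, read 10.27 and 10.19 in KO and 7.62 and 8.35 in KOWI, a difference of -2.24 ± 0.28 (limma, adjusted p = 0.0559). Neurod1, a hormone cell transcription factor, read 8.69 and 8.14 in KO and 6.87 and 6.8 in KOWI, a difference of -1.58 ± 0.22 (adjusted p = 0.0607). Its probe was not well above background in KOWI, so no fold is given. Chga, a granule protein of nearly all these cells, was lost to outlier spots, and with them kept its ratios were -1.86 and -1.37. Of 18 tuft cell markers 4 were tested with none called, and Dclk1 differed by -0.14 with outlier spots kept.

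Among 12 tested colonic stem cell markers 1 rose (0.172% of all tested genes did), 9 values were above 0 and the median was 0.24. With both groups above background 10 markers were left and limma called 0, since Nrn1 passed the filter through KOWI alone. Nrn1, a surface protein, read 8.71 and 8.29 in KO and 10.07 and 10.01 in KOWI, a 2.91-fold rise (limma, adjusted p = 0.0488). In KO replicate 2 its probe was well above background on 1 of 2 arrays. Aqp4, a water channel on the same list, read 13.47 and 15.03 in KO and 10.97 and 9.22 in KOWI on 5 of 6 arrays, a difference of -4.16 ± 0.72 (adjusted p = 0.082). Smoc2 differed by -0.21, and Olfm4 was dim. The list thus held genes on both sides. Proliferation genes had medians of -0.04 over 15 mitosis genes and 0.05 over 22 replication genes and no limma call among them. At an unadjusted p under 0.05 there were 0 and 1. These medians moved with the sample left out, to 0.30 and 0.39 without KOWI replicate 1 and to -0.61 and -0.27 without KOWI replicate 2. Mki67, a marker of cycling cells, had ratios of -1.02 and 0.56. On the 2 arrays that carried KOWI and KO together it differed by -0.12 and -0.05.

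**Figure D4:**
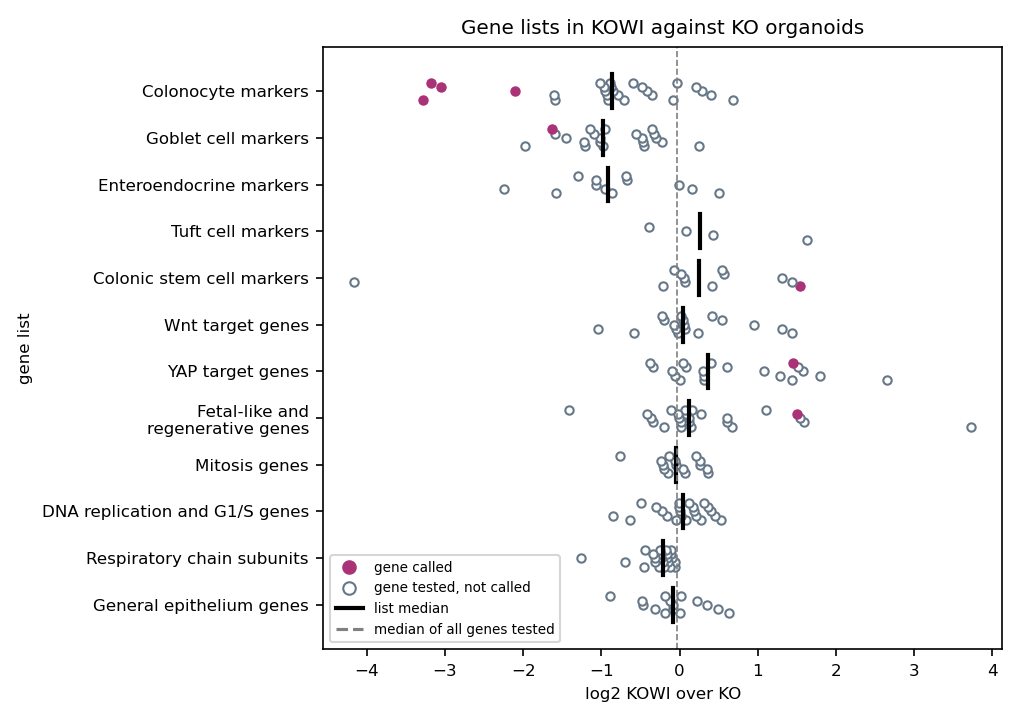
KOWI over KO difference (log2) of the tested members of selected gene lists, one point per gene, with the list median marked. Goblet cell, enteroendocrine and colonocyte markers have medians of -0.97, -0.91 and -0.86, YAP targets 0.36 and Wnt targets 0.05.

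YAP target genes lay on the higher side in KOWI. Of 20 tested 1 rose, 16 had values above 0, and 11 had KOWI values above both KO values against 2 with KOWI values below. Over all tested genes these shares were 0.172% called higher, 16.1% above and 21.6% below without overlap. The median was 0.36, and 6 exceeded 2-fold in both replicates. Some members passed the background filter only through KOWI, where they are high, so these counts give no support. With both groups above background 15 genes were left, limma called 0 and the median was 0.31. Tgfb2, a TGF-β ligand and one of the members that passed through KOWI alone, read 7.64 and 7.35 in KO and 9.01 and 8.86 in KOWI, a 2.72-fold rise (limma, adjusted p = 0.047), with its probe well above background on 1 of the 2 arrays of KO replicate 2. Ccn2, a matrix protein and classical YAP target, read 12.81 and 12.11 in KO and 14.85 and 15.38 in KOWI. Its difference of 2.65 ± 0.39, or 6.28-fold, missed the threshold (adjusted p = 0.0666). Ccn1 read 9.50 and 9.22 in KO and 10.68 and 10.61 in KOWI, a difference of 1.29 ± 0.17 (adjusted p = 0.059). All 3 genes had KOWI samples clear of KO samples.

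Ccdc80, another gene on the YAP list, read 8.12 and 7.39 in KO and 10.12 and 8.99 in KOWI, a difference of 1.80 (limma, adjusted p = 0.0625). Ptpn14 differed by 1.51 (adjusted p = 0.0712). Foxf2 was at least 2.68-fold higher on single-channel intensities, a bound since KO was not well above background (adjusted p = 0.0664). Ankrd1, a frequent YAP readout, differed by 0.32. Wwtr1, which encodes TAZ, read 10.29 and 10.05 in KO and 11.56 and 11.36 in KOWI, a difference of 1.29 ± 0.18 (adjusted p = 0.0625). Limma called none of the 19 tested Hippo components, 3 had an unadjusted p under 0.05, and their median was 0.24. The TEAD motif was in 5 of the 13 tested YAP targets that had a RefSeq promoter entry, or 38.5%, among them Ccn1 with the sequence above. It was in 12.8% of the 7917 tested genes with an entry, in 4 of 20 colonocyte markers (20.0%) and in 0 of the 14 genes called higher that have one.

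**Figure D5:**
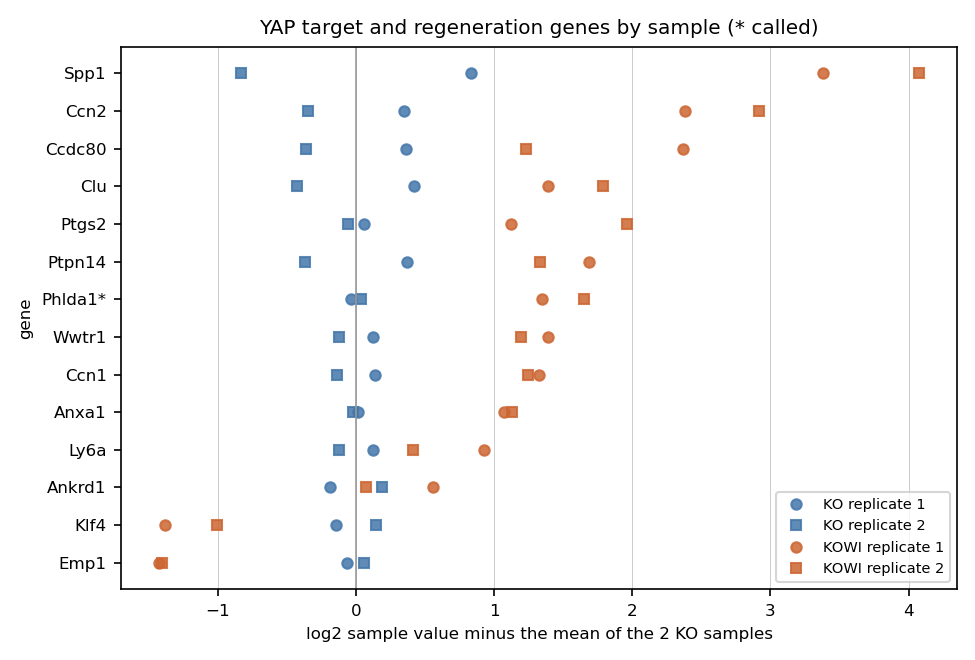
Log2 value of each KO and KOWI sample minus the mean of the 2 KO samples, for YAP target and regeneration genes and Klf4; circles are replicate 1, squares replicate 2, and an asterisk marks a called gene. Both KOWI samples lie above both KO samples in Spp1, Ccn2, Ccdc80, Clu and Ccn1 and below them in Klf4 and Emp1, while Ankrd1 overlaps.

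Genes of fetal-like and regenerating epithelium were mixed. Of 25 tested 1 rose (0.172% of all tested genes did), 17 had values above 0 and the median was 0.12. Phlda1, a gene induced by growth factor signalling, read 13.49 and 13.55 in KO and 14.87 and 15.17 in KOWI, a 2.82-fold rise (limma, adjusted p = 0.047). Spp1, which encodes osteopontin, read 13.60 and 11.94 in KO and 16.15 and 16.85 in KOWI. Its difference of 3.73 ± 0.61 was 13.3-fold but varied between replicates, at 2.55 and 4.91 (adjusted p = 0.0757). Clu, a marker of revival stem cells, read 14.82 and 13.97 in KO and 15.78 and 16.18 in KOWI, a difference of 1.59 ± 0.31 (adjusted p = 0.101). Anxa1 differed by 1.10 ± 0.17 (adjusted p = 0.0706), with probes ranging from 0.26 to 1.10. Ly6a, which encodes the fetal-state marker Sca-1, differed by 0.67 (adjusted p = 0.274). Emp1 lay on the lower side at -1.41, and the EGF family ligands Ereg and Areg differed by -0.10 and 0.12.

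Dusp1 rose by 2.14 ± 0.24 on the log2 scale (limma, adjusted p = 0.0457), from 12.90 and 13.54 in KO to 15.34 and 15.39 in KOWI. It was the called member among 10 immediate early genes tested, beside 0.172% of all tested genes called higher. Its promoter is the one that holds the full cAMP response element shown above, a motif present in 2 of the 14 genes called higher that have an entry, Dusp1 and Gpm6b, and in 2.98% of tested genes with an entry. Of 21 tested genes of the BMP and TGF-β pathway 1 rose, Tgfb2, beside 0.172% of all tested genes, and 15 had values above 0. With both groups above background 17 were left and limma called 0. Both media held the TGF-β receptor inhibitor. None of the tested laminins and integrins was called, and Lamb1, a laminin chain, differed by 1.51 (adjusted p = 0.0631).

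Genes outside these lists rose too. Bend4 was called, at 6.92 and 7.26 in KO and 9.72 and 10.37 in KOWI (limma, adjusted p = 0.0253). In KO its probe was well above background on 1 of 4 arrays, so no fold or rank is given. Gpm6b, a membrane glycoprotein best known from brain, read 8.38 and 7.95 in KO and 10.74 and 10.97 in KOWI (6.45-fold; adjusted p = 0.0253). Tm4sf1, a membrane protein of many carcinomas, read 13.96 and 13.51 in KO and 16.46 and 15.54 in KOWI (4.81-fold; adjusted p = 0.0337). Prrx2, a homeobox gene of mesenchyme, rose 4.22-fold by its brightest probe, while its 3 probes ranged from 0.48 to 2.08 (log2) and their mean was not called, at 1.31. Epdr1 rose 4.75-fold, and both genes had 1 of 2 arrays of KO replicate 2 well above background. Bend4, Prrx2 and Epdr1 passed the background filter through KOWI alone, where they are high, so these calls give no support. St8sia4, which builds polysialic acid, rose by 1.67 on the log2 scale, beside a KO over WT difference of 1.87. In WT replicate 2 its probe was well above background on 1 of 2 arrays. By their brightest probes Zfp52, Fam32a and Tmem121 rose by 1.96, 1.69 and 1.57 (log2), and the other probe of Zfp52 differed by 0.90.

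Zscan4c and Zscan4a, genes of the early embryo, rose by 1.59 ± 0.16 and 1.57 ± 0.18 on the log2 scale (limma, adjusted p = 0.0398 and 0.0477). Zscan4c read 9.12 and 8.55 in KO and 10.65 and 10.20 in KOWI. The copies of this family are nearly identical, so their probes may share signal and do not count as separate observations. Zscan4b differed by 1.27 and was not called (adjusted p = 0.0657). KO stood 1.43 above WT in Zscan4c, with each WT sample well above background on 1 of 2 arrays. The KO samples enter both differences.

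Among called genes the largest fall was that of Sval1, at 11.02 and 11.75 in KO and 7.30 and 7.65 in KOWI. That is a difference of -3.91 ± 0.18 (limma, adjusted p = 0.0154), or 15.1-fold. Klk1b5, a kallikrein with nearly identical neighbours, fell 9.05-fold (adjusted p = 0.0362). The probe of the neighbour Klk1b26 gave replicate ratios of -3.95 and -2.38, and the copies could share signal. Dmbt1, a mucosal scavenger receptor that binds bacteria, read 15.51 and 15.30 in KO and 12.40 and 13.15 in KOWI (6.21-fold; adjusted p = 0.0436). Spink1, a trypsin inhibitor, fell by 2.94 on the log2 scale on 5 of 6 arrays, and with outlier spots kept its replicates stood apart at -3.92 and -0.88. Fam174b, Tex12 and Mcur1 also fell, with differences of -2.51, -2.43 and -2.17 (log2). The other probe of Mcur1 differed by -0.91, and Tex12 was not well above background in KOWI replicate 2.

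Host defence genes were mostly lower, with 18 of 21 tested values below 0 and a median of -0.25. Of the 21, 2 were called lower, beside 0.253% of all tested genes. Beside Lypd8 the called gene was Reg3b, an antibacterial lectin. Reg3b read 8.17 and 7.21 in WT, 10.83 and 9.96 in KO, and 8.44 and 7.56 in KOWI. The fall from KO to KOWI was 5.27-fold (limma, adjusted p = 0.0253), and the KOWI and WT values overlapped. KO over WT was 2.71 (log2), with WT replicate 2 well above background on 1 of 2 arrays. As the KO samples enter both differences, these are the same 6 values seen from either side.

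Drug-metabolising enzymes had a median of -0.41 over 24 tested genes, of which 1 fell (0.253% of all tested genes did) and 19 had values below 0. Sult1b1, which sulfates phenols and thyroid hormone, read 14.94 and 14.68 in KO and 12.07 and 12.45 in KOWI (5.86-fold; limma, adjusted p = 0.0253), and its other probe differed by -1.84 (log2). Of 21 ion exchangers and channels 2 fell, Aqp8 and Slc9a3, beside 0.253% of all tested genes, and the median was -0.57. Further called genes, named after their values were seen, were the transporters Slc5a8 and Slc6a19, which carry butyrate and neutral amino acids, at -1.99 and -1.96. In each KOWI sample the Slc6a19 probe was well above background on 1 of 2 arrays. Akr1c14, a steroid-reducing enzyme, fell by 2.74 on the log2 scale on 5 of 6 arrays.

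The lists of energy genes had small median differences, though single genes differed more. All 23 tested respiratory chain subunits had fitted values below 0, ranging from -1.26 to -0.06, with a median of -0.21. Limma called 0 of them, and 3 had an unadjusted p under 0.05. The medians were -0.04 in replicate 1 and -0.51 in replicate 2, so the shift lay mostly in 1 replicate. In 12 of these genes both KOWI values lay under both KO values, against 21.6% of all tested genes. Of 17 genes of fatty acid oxidation 16 had values below 0, with a median of -0.17 and no call. Glycolysis genes were split evenly, 9 and 9, and Pgk1 differed by 0.99 (limma, adjusted p = 0.08). Cholesterol synthesis genes had a median of -0.15 over 17.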

How the data were processed

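RNA of 6 organoid samples (2 each of WT, KO and KOWI) was read on 6 of the series' Agilent 2-colour arrays, and the tissue arrays were not used here. Per the file headers, the authors extracted an intensity for every spot and a local background intensity (mean and median signal) with Feature Extraction 12.2.0.7, probe coordinates being on mm9. The deposited log10 ratio of the scanner files is Cy5 over Cy3 after that software's background and dye steps, per the file headers. A value table by the authors gives log2 ratios per probe. The submitters' processing notes name limma for it, with no version. Set against the scanner ratio, its columns had slopes of 0.97 to 1 and medians of -0.000581 to 0.0171, so scale and direction are known, and the centring method is not.

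Intensities were corrected by normexp (offset 50) and loess in limma 3.58.1 (R 4.3.3). Control spots were left out, outlier spots were set to missing, and 0 columns of other samples were present. A probe was kept if well above background in all channels of at least 1 group, and each gene is read by its brightest probe. Probes were named through RefSeq GRCm38.p6 accessions. Of 56605 probes 35405 matched by accession, 9124 by symbol, 25 by synonym, and 12051 stayed unnamed. Of 14665 genes that passed, 9894 had enough arrays to be fitted, 7426 on 6 arrays and 2468 on 5, and 4771 were lost to outlier spots. The ratios were resolved into 6 sample values by least squares, and a gene's mean log2 intensity was added to each. Group and replicate number, which is also the dye, were fitted with limma and adjusted by Benjamini-Hochberg over all 9894 genes. Whether the replicate numbers pair the samples is not known. Deviations from group means correlated across genes at 0.215 for WT with KO, 0.168 for WT with KOWI and -0.0172 for KO with KOWI. These deviations also hold the dye, so the correlations cannot settle the pairing. Array number limits the precision. Levels of different probes are not comparable.

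Named are the 12 largest called genes per side with one sign in both replicates and on both direct arrays, leaving out clone names, then up to 4 called members per side of each of 47 gene lists, and a preset list of Wnt, lineage, p53 and YAP genes. Other genes that did not pass were chosen after their values were seen. Members, lists and comparisons were chosen with earlier results of these data known, so a list's count is not independent evidence of its direction. Alternatives covered background correction, ratio source, scaling, filters, probe choice, the replicate block, array subsets and each sample left out. Drawings used Python 3.11.15 and matplotlib 3.10.9.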

Additional observations from a re-analysis of the deposited data

Results flagged for a closer look

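Data outside the fit held further large values. Of the genes lost to outlier spots, 6 stood higher past 2-fold in both replicates and 13 lower past 2-fold when those spots were kept. Thbs1 and Fn1, which encode matrix proteins, differed by 2.31 and 2.22 (log2), and Cpe, a hormone-processing enzyme, by 1.20. Pmp22 differed by -2.16, Sult1d1 by -1.99, Ccl28, a mucosal chemokine, by -1.67, and Foxa2, a factor of secretory cells, by -1.18. Probes that no gene name could be given to were over 2-fold higher in both replicates in 9 cases and over 2-fold lower in 10, of 2185 such probes fitted. Limma called 2 of them higher and 0 lower in a fit over 18354 probes. No cause was tested for any of these.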

How the results depend on the processing

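The 42 calls kept their sign in every alternative that gave them a value. Named genes had 1455 alternative values, of which 1073 kept direction and side of the threshold, 287 lost the call, 42 gained one and 53 changed the sign of an uncalled value. Calls (higher, lower, total) were 5, 16 and 21 with offset 16, 0, 0 and 0 with the scanner's ratios, the authors' deposited ratios or outlier spots kept, and 0, 4 and 4 with no filter on dim probes. They were 11 higher of 33 with both groups above background, 15, 28 and 43 with the mean of a gene's probes, 23, 32 and 55 for probes under a log2 intensity of 14, and 1096, 1117 and 2213 with arrays taken as independent, which counts each sample several times. The direct arrays alone gave 4, 13 and 17 and the indirect arrays alone 13, 30 and 43. Chosen after seeing the data, the authors' ratios without outlier spots gave 4, 6 and 10, and genes on all 6 arrays 95, 93 and 188. Without the replicate block, which here is also the dye, limma called 11 higher, 27 lower and 38 in all. Leaving out 1 sample in turn gave 0 to 78 higher, 0 to 66 lower and 0 to 143 in all.

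List medians moved as follows (log2), in each case with the cause not tested. Colonocyte markers stood at -0.598 with the authors' ratios, -0.6261 with outlier spots kept and -0.7336 with the mean of probes, and at -0.9361 to -0.5026 with 1 sample left out. Goblet markers stood at -1.1108 with offset 16, -1.1179 without background subtraction, -1.2042 with the scanner's ratios, -0.8249 with the authors', -0.6882 with outlier spots kept, -1.0179 with both groups above background and also on 6 arrays, -0.8633 with the mean of probes, -1.0975 for probes under 14, -0.8561 on direct and -1.1422 on indirect arrays, -1.1579 with the authors' ratios less outliers, and -1.1608 to -0.8088 with 1 sample left out. Enteroendocrine markers, in the same order where they moved, stood at -1.0037, -1.0646, -1.2635, -0.6474, -0.4748, then -0.3468 with no filter on dim probes, -0.7522 on direct and -1.2039 on indirect arrays, -1.0585 with the authors' ratios less outliers, -1.0066 on 6 arrays, and -1.1824 to -0.7522 with 1 sample left out. YAP targets stood at 0.3698 with offset 16, 0.3841 without subtraction, 0.3998 with the scanner's ratios, 0.4633 with the authors' with and without outliers, 0.4304 with outlier spots kept, 0.3149 with both groups above background, 0.4435 on direct, 0.4179 on indirect arrays, 1.0792 on 6 arrays, and 0.3163 to 1.2429 with 1 sample left out. With 1 sample left out, Wnt targets ranged from -0.60 to 0.462, stem cell markers from 0.0492 to 0.6939 and fetal-like genes from -0.0771 to 0.3996. Wnt targets were lowest without KOWI replicate 2 and highest without KOWI replicate 1.

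Of genes under a log2 intensity of 14, 35.8% were lost to outlier spots, against 20.3% of brighter ones. The median size of a difference was 0.123 at intensities of 14 to 15 and 0.0943 above 15, against 0.205 to 0.259 in bins under 11.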
